A study of Mus musculus with 6 samples.

Results

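Cytosolic ribosomal protein genes were examined in activated CD8 T cells of the mouse, the killer lymphocytes of the adaptive immune system. Members were the protein-coding genes whose symbol follows the Rpl, Rps, Rplp0 to Rplp2 and Rpsa pattern and whose gene row had a mean of at least 10 TPM over all 6 libraries. TPM are transcript abundances corrected for transcript length and scaled to the same library total. Of 80 genes with such a symbol 77 were members, 46 of the large and 31 of the small ribosomal subunit, out of 22288 genes in the whole table. Rpl3l and Rpl10l were listed at 0 and Rpl39l stood at 1.36 TPM, well below the minimum of 10 TPM. Rps27 at 24.2 and Rpl10 at 277 TPM (gene rows) were the lowest members above it.

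Naive CD8 T cells had been purified from the spleen of wild-type mice of the inbred strain C57BL/6 and stimulated for 48 h through CD3 and CD28 with antibodies, in medium containing IL-2. All libraries share that stimulus. There were 3 libraries from cells given the solvent DMSO and 3 from cells given 10 nM ponatinib, a drug that blocks the kinase BCR-ABL among a broad range of others. Nothing in the labels ties the replicates to separate mice or cultures, and p-values therefore reflect the spread among these libraries only, which may be technical.

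The ribosome is built from ribosomal RNAs and many small basic proteins, most of them present as a single copy per particle. The large subunit forms peptide bonds and holds the stalk that recruits elongation factors and the tunnel through which the new chain leaves. The small subunit binds the messenger RNA, its head and body moving against each other during decoding. Messages of these proteins begin with a C followed by a run of pyrimidines, the terminal oligopyrimidine tract through which the mTORC1 kinase pathway controls their translation. Resting T cells raise ribosome production when they are activated.

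Defining markers of the labelled cell type were present. Cd3d, Cd3e, Cd3g, Cd8a and Cd8b1 lay between 197 and 517 TPM in the 6 libraries. They summed to 1347 to 1378 TPM with DMSO and to 1576 to 1816 TPM with ponatinib, and Cd8a stood at 227 to 245 and at 331 to 371 TPM. The 13 markers of CD4 T cells, B cells, NK cells, myeloid cells and red cells together reached 3.5 to 9.27 TPM with DMSO and 21.5 to 29.2 TPM with ponatinib. Means were higher with ponatinib for 11 of the 13. The largest difference in TPM was that of Foxp3, known from regulatory T cells, at 1.224 to 1.42 TPM with DMSO and 7.33 to 12.8 TPM with ponatinib. Lyz2, a myeloid gene, stood lower, at 0.0422 to 0.26 and at 1.13 to 2.81 TPM, with a larger ratio between the treatments. The others stayed under 6 TPM in every library, and 6 of the 13, among them the NK cell gene Ncr1, were at 0 in at least 1 library. The part of these markers and cells in the differences was not tested.

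The members together held 27.6%, 27.5% and 28.5% of TPM in DMSO replicates 1 to 3 and 27.3%, 26.5% and 26.4% in ponatinib replicates 1 to 3. All ponatinib libraries were below all DMSO libraries. The mean went from 27.9% ± 0.565 to 26.7% ± 0.454 (SD, n = 3 per group). With Rps27rt, a copy of Rps27 described further on, added to the members, ponatinib replicate 1 lay above DMSO replicate 2 and the groups overlapped. Because these are shares of bulk RNA, fewer cells of a type and less RNA per cell cannot be told apart. The median member stood at 3206 TPM with quartiles at 2351 and 4483 TPM, and 73 of 77 members reached 1000 TPM. Replicates were close. The coefficient of variation had a median of 3.78% with DMSO and 2.42% with ponatinib over the members. Over the other 6739 genes tested it was 7.23% and 5.01%. Of those only 75 reached 1000 TPM, so the levels compared are not alike.

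Each gene was compared between treatments with limma on log2(TPM + 1), a scale that understates changes of low genes but hardly matters at these levels. Calls required a p under 0.05 after Benjamini-Hochberg adjustment over all 6816 genes tested. With ponatinib 12 members fell and 1 rose. Over all genes tested 9.13% fell and 27.3% rose. The median log2 fold change was -0.05 over the members, -0.06 over the large and -0.04 over the small subunit. It was 0.10 over all genes tested. Over the members it was -0.15 with medians of ratios, -0.0011 with quantile normalization and 0.01 with equal sums of the members, scalings described further on. Equal sums hold the median of the members near 0 by construction. On deposited TPM 56 members lay below 0, and 70 lay below the median of all genes. In the lower direction the groups did not overlap in 29 of 77 members, against 13.8% of all genes tested. In the higher direction this held for 6 of 77 members, against 37.6% of all genes tested. Changes were small: 49 members lay within 0.1 of 0 on the log2 scale, and the 77 values ran from -0.34 to 0.16.

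**Figure D1:**
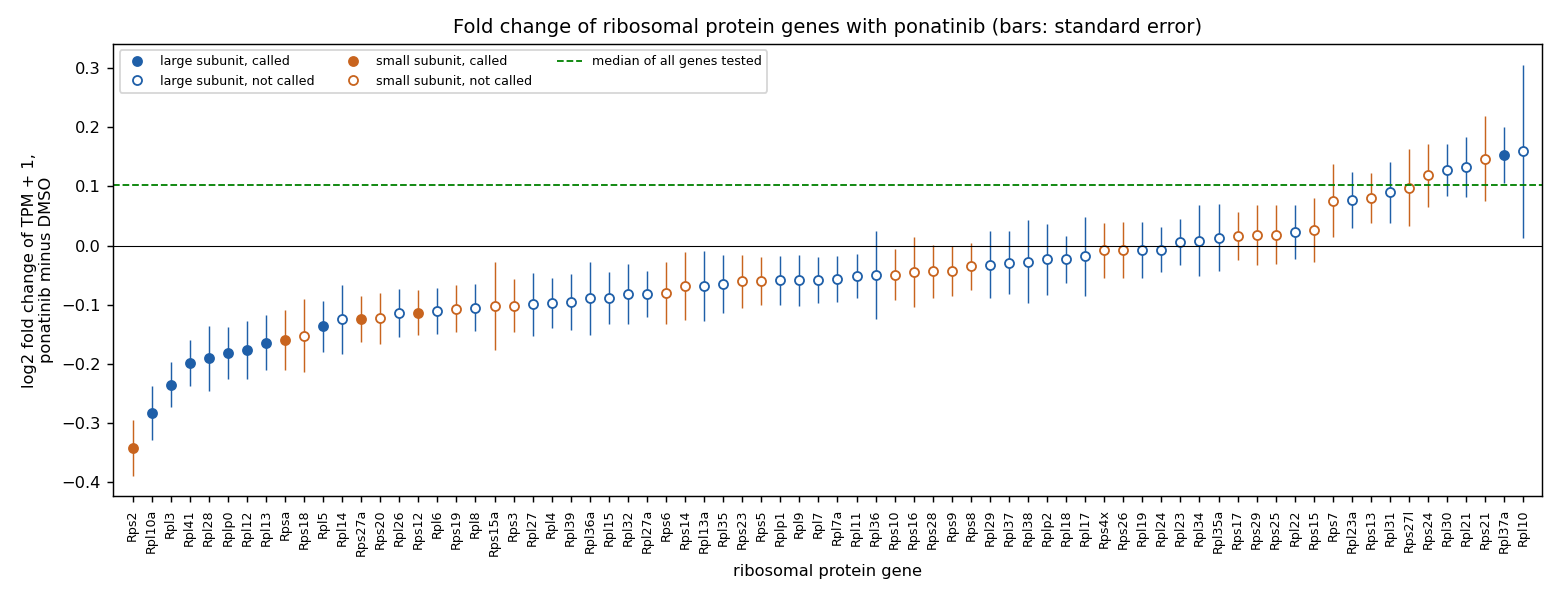
Log2 fold change (ponatinib minus DMSO, log2 of TPM + 1) of 74 ribosomal protein genes, ordered by value, with bars for the standard error, filled points for called genes and a dashed line at the median of all genes tested, 0.10. Rps27, whose standard error was 0.75, and 2 genes not reported by name are left out; Rps2 lies lowest at -0.34 and most points lie below the dashed line.

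Start-site sequence was compared with RefSeq promoter windows on GRCm38.p6, which run from 250 bases before to 50 bases after each annotated start; 57 of 77 members had one. A C followed by at least 4 further pyrimidines on the coding strand lay within 20 bases of the start in 78.9% of them, against 49.9% of 27025 genes with a window. The median log2 fold change was -0.06 in the 45 members with such a run and -0.05 in the 12 without. Shown are the windows of the 9 called members that hold a run, 30 bases each with the run in capitals. They let the runs be compared between genes that fell and Rpl37a, which rose:
Rps2, chr17:24720059-24720088, plus strand: atctcgcgCTTCTTggagcactataaattg
Rpl10a, chr17:28328454-28328483, plus strand: tggtggcgCCCCCCCagcggccgcaaactg
Rpl28, chr7:4792955-4792984, plus strand: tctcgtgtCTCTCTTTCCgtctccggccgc
Rplp0, chr5:115559472-115559501, plus strand: gcctggttCTCCTataaaaggcacacgcgg
Rpl12, chr2:32961706-32961735, plus strand: ggatccgtCTTTTCggctttcggctcggag
Rpl13, chr8:123102326-123102355, plus strand: tgacgtcaCTTCCCTTTCgcctgattttga
Rpl5, chr5:107900500-107900529, plus strand: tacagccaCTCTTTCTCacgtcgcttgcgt
Rps12, chr10:23787180-23787209, minus strand: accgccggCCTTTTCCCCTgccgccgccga
Rpl37a, chr1:72711236-72711265, plus strand: tcgcgtcaCTTCCgctcgccggtctaaaac

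The runs of the genes that fell held 5 bases in Rplp0, 6 in Rps2 and Rpl12, 7 in Rpl10a, 9 in Rpl5, 10 in Rpl28 and Rpl13 and 11 in Rps12, and that of Rpl37a held 5. Their first base lay between -20 (Rpl5) and 13 (Rplp0) relative to the annotated start. A match is a description of the letters, not a mapped start. A run need not be the tract at which the message begins. Other motifs were searched on both strands over the whole window. CCGGAAG, the core bound by ETS factors such as GABPA, occurred in 42.1% of the members' promoters and in 9.93% of all genes. AAGATGGC, bound by YY1, occurred in 8.77% and 3.19%, and CACGTG, bound by MYC and its relatives, in 10.5% and 8.09%. With and without CCGGAAG the median log2 fold change of the members was -0.05 and -0.06.

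The largest fall among all members was that of Rps2, a small subunit protein at the entry of the messenger RNA channel. Rps2 stood at 8646, 8923 and 8345 TPM in DMSO replicates 1 to 3 and at 6550, 7031 and 6864 TPM in ponatinib replicates 1 to 3. Every ponatinib library was over 1000 TPM below every DMSO library. Its mean fell by 21.1%, from 8638 ± 289 to 6815 ± 244 TPM (log2 fold change -0.34, SE 0.05, limma adjusted p = 0.0018), while under quantile normalization its value was 0.01 and not called. The gene has 6 exons on chromosome 17 of GRCm38, plus strand, from 24718116 to 24721929.

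Large subunit members showed 8 that fell and 1 that rose of 46, or 17.4% and 2.17%. Rpl10a, the protein of the mobile L1 stalk beside the exit site of the transfer RNA, stood at 2855, 2779 and 2967 TPM with DMSO and at 2434, 2302 and 2330 TPM with ponatinib. The groups stood well apart. Rpl10a fell by 17.9% (log2 fold change -0.28, SE 0.05, limma adjusted p = 0.003045); its 6 exons span 28328471 to 28331033 of chromosome 17, plus strand. Rpl3, a protein that reaches towards the peptidyl transferase centre, stood at 3305, 3266 and 3342 TPM with DMSO and at 2838, 2794 and 2787 TPM with ponatinib. Replicates of each treatment lay close together, far apart from the other treatment. Rpl3 fell by 15.1% (log2 fold change -0.24, SE 0.04, limma adjusted p = 0.0032) and has 10 exons between 80077791 and 80091868 of chromosome 15, minus strand.

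Rpl41 encodes the smallest ribosomal protein, a short basic helix at the interface of the subunits. Its levels were 9438, 9587 and 9395 TPM with DMSO and 8165, 8305 and 8298 TPM with ponatinib, so that no library of 1 treatment came near the other. The mean fell by 12.8% (log2 fold change -0.20, SE 0.04, limma adjusted p = 0.00682), while under quantile normalization the value was 0.15 and not called. Rpl28, which has no bacterial counterpart, stood at 2078, 2231 and 2342 TPM with DMSO and at 1929, 1885 and 2007 TPM with ponatinib. The lowest DMSO and the highest ponatinib library of Rpl28 were close, and it fell by 12.5% (limma adjusted p = 0.028). Rpl13 stood at 4905, 5006 and 5317 TPM with DMSO and at 4539, 4619 and 4422 TPM with ponatinib. It was lower in every ponatinib library and fell by 10.8% (limma adjusted p = 0.0272).

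Stalk proteins carry the factor-binding arm of the large subunit: Rplp0 and Rpl12 form its base, and dimers of Rplp1 and Rplp2 form the flexible part. Rplp0 stood at 5851, 5775 and 5433 TPM with DMSO and at 4985, 5051 and 4991 TPM with ponatinib. Rpl12 stood at 2471, 2434 and 2682 TPM with DMSO and at 2263, 2204 and 2238 TPM with ponatinib. Both base proteins were lower in every ponatinib library than in any DMSO library and fell by 11.9% (limma adjusted p = 0.0151) and by 11.6% (limma adjusted p = 0.0248). Rplp1, the member with the highest level, had means of 10629 ± 212 and 10202 ± 164 TPM and a log2 fold change of -0.06 (adjusted p = 0.291). Rplp2 stood at 4260, 4119 and 4769 TPM with DMSO and at 4374, 4364 and 4175 TPM with ponatinib, with overlapping groups and a log2 fold change of -0.02. Whether the base and the flexible part differed in their change was not tested.

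Rpl5 and Rpl11 bind the 5S ribosomal RNA, and free of ribosomes they bind the p53 regulator MDM2. Rpl5 stood at 2067, 1985 and 2141 TPM with DMSO and at 1885, 1869 and 1878 TPM with ponatinib. The ponatinib libraries were almost equal and all lower, and Rpl5 fell by 9.06% (limma adjusted p = 0.0402; 0.02 on the log2 scale and not called under quantile normalization). Rpl11 stood at 2940, 2988 and 3013 TPM with DMSO and at 2878, 2881 and 2869 TPM with ponatinib. Its groups did not overlap either, but the difference of -0.05 on the log2 scale (SE 0.04) was not called (adjusted p = 0.317). For the 8 members around the tunnel exit, where chaperones and the signal recognition particle dock, limma called 0 in either direction, and 1 was lower at an unadjusted p under 0.05, as were 11.9% of all genes tested. Their values ran from -0.11 for Rpl26 to 0.09 for Rpl31. Rpl22, a tunnel-exit protein needed for development of T cells, stood at 2463, 2409 and 2455 TPM with DMSO and at 2572, 2356 and 2522 TPM with ponatinib; its groups overlapped.

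Rpl37a, a zinc-binding protein of the large subunit, was the member that rose. Its levels were 2666, 2720 and 2761 TPM with DMSO and 3176, 2895 and 2991 TPM with ponatinib, with all ponatinib libraries above all DMSO libraries. The log2 fold change was 0.15 (SE 0.05, limma adjusted p = 0.0376), and the mean TPM was 11.2% higher. Its 4 exons span 72711290 to 72713813 of chromosome 1, plus strand. The other large subunit members whose groups did not overlap in the higher direction were Rpl30 and Rpl21, at 0.13 each, and neither was called (adjusted p = 0.0542 and 0.0743).

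Small subunit members showed 4 that fell of 31, or 12.9%. No member of this subunit was called higher by limma, and 1 was higher at an unadjusted p under 0.05, as were 34.9% of all genes tested. Besides Rps2, the body protein Rpsa, also known as the laminin receptor, stood at 5466, 5923 and 5349 TPM with DMSO and at 4940, 5108 and 4916 TPM with ponatinib. All ponatinib libraries were lower, and Rpsa fell by 10.6% (limma adjusted p = 0.0394). Among 14 proteins of the head, Rps27a, made as a fusion with ubiquitin, stood at 3136, 3126 and 3196 TPM with DMSO and at 2948, 2874 and 2856 TPM with ponatinib. Its groups did not overlap, and it fell by 8.25% (limma adjusted p = 0.0387). Rps12 stood at 5175, 5226 and 5158 TPM with DMSO and at 4778, 4853 and 4746 TPM with ponatinib. The spread within each treatment was small beside the distance between them, and Rps12 fell by 7.6% (limma adjusted p = 0.0486).

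Rps6, the classic substrate of the S6 kinases downstream of mTORC1, stood at 4169, 3935 and 4339 TPM with DMSO and at 4074, 3897 and 3793 TPM with ponatinib. Its groups overlapped and it was not called (log2 fold change -0.08, adjusted p = 0.257). Rps29 and Rps18 had the highest levels of the small subunit after Rps2. Rps29 had means of 5434 ± 250 and 5499 ± 176 TPM (log2 fold change 0.02). Rps18 had means of 5668 ± 411 and 5093 ± 212 TPM (-0.15, adjusted p = 0.088). Rps24 and Rps13 were higher in every ponatinib library, at 0.12 and 0.08, and were not called.

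Levels spanned a wide range among members. Rpl13a, Rplp1 and Rpl41 were highest in the large subunit; Rpl13a, known for a second role in silencing inflammatory messages, stood at 9741, 9721 and 9293 TPM with DMSO and at 9588, 9455 and 8409 TPM with ponatinib. Only ponatinib replicate 3 of Rpl13a lay well below the rest, and the groups overlapped (log2 fold change -0.07, adjusted p = 0.39). After Rpl10, the lowest of the large subunit were Rpl39, a tunnel protein with means of 1280 ± 55.6 and 1197 ± 26.3 TPM, and Rpl37, with means of 1275 ± 82.8 and 1248 ± 19.97 TPM; neither was called. In the small subunit Rps20, a head protein, stood at 503, 535 and 506 TPM with DMSO and at 471, 477 and 469 TPM with ponatinib. All ponatinib libraries of Rps20 were lower, and its adjusted p was 0.0584 (log2 fold change -0.12, SE 0.04).

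**Figure D2:**
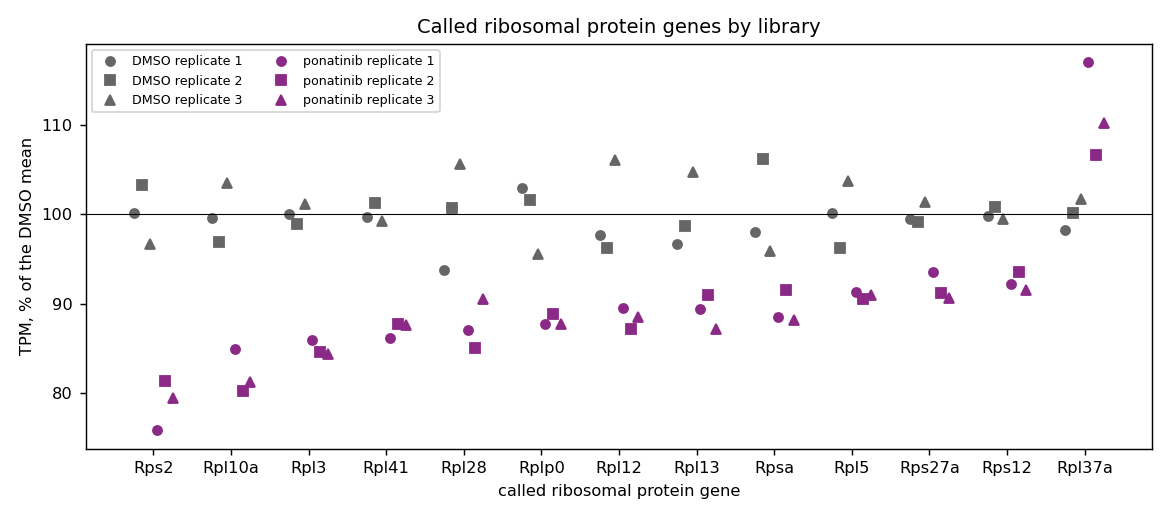
TPM of the 13 called ribosomal protein genes in each library, as a percentage of the gene's DMSO mean, with grey symbols for DMSO and purple symbols for ponatinib and 1 symbol shape per replicate number; the vertical axis does not start at 0. In all 13 genes the purple symbols lie on 1 side of the grey ones, by the widest gap in Rps2 and above them in Rpl37a alone.

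Calls differed in how far they rested on single libraries. Rps2, Rpl10a, Rpl3 and Rpl41 were called with any of the 6 libraries left out, with highest adjusted p of 0.0121, 0.0205, 0.0223 and 0.0351. The other 9 calls were each lost without some library. Rplp0 was lost without DMSO replicate 1 or ponatinib replicate 2 or 3 (adjusted p up to 0.0672). Rpl12 and Rpl5 were lost without DMSO replicate 1 or any ponatinib library (up to 0.0955 and 0.132). Rpl28 and Rpl13 were lost without DMSO replicate 2 or any ponatinib library (up to 0.108 and 0.105). Rpl37a, Rpsa, Rps27a and Rps12 were lost when any library except DMSO replicate 3 was left out (up to 0.126, 0.129, 0.141 and 0.15). None of the 13 changed sign when a library was left out.

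DMSO replicate 3 stood apart. It was the highest DMSO library for 51 of 77 members. Its TPM held 4.78% from mitochondrially encoded genes, whereas the other DMSO libraries held 9.76% and 10.7%, and the ponatinib libraries from 7.16% to 8.19%. With those genes left out of the total, the members' share was 30.6%, 30.8% and 29.9% with DMSO and 29.6%, 28.9% and 28.5% with ponatinib, so that DMSO replicate 3 became the lowest of its group and the groups still did not overlap. Without DMSO replicate 3, 15 members were lower and 6 higher, the latter including Rpl21, Rpl30, Rpl37a, Rps7 and Rps21, where 9.86% of all genes were lower and 39.3% higher. The median over the members was then -0.03. The part of the mitochondrial share in these differences was not tested.

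Summed over its genes, the large subunit held 16.3%, 16.2% and 16.9% of TPM in DMSO replicates 1 to 3 and 16.0%, 15.6% and 15.5% in ponatinib replicates 1 to 3. The small subunit held 11.3%, 11.3% and 11.7% with DMSO and 11.2%, 10.9% and 10.9% with ponatinib. Both sums were lower in every ponatinib library, although for the small subunit the lowest DMSO library, at 11.27%, and the highest ponatinib library, at 11.24%, were almost level. The means differed by -4.46% for the large and by -3.45% for the small subunit; as scores over the members these sums were not tested. With Rps27rt, a copy of Rps27 described further on, the small subunit summed to 117221, 116434 and 121694 TPM with DMSO and to 119437, 114486 and 114771 TPM with ponatinib. These groups overlapped, and the means differed by -1.87%. Per gene, the mean level was 3576 TPM for the large and 3680 TPM for the small subunit with DMSO, and 3416 and 3553 TPM with ponatinib.

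The ratio of large to small subunit sums was 1.440, 1.438 and 1.447 in DMSO replicates 1 to 3 and 1.424, 1.426 and 1.429 in ponatinib replicates 1 to 3. It was lower in all ponatinib libraries and differed between the means by -1.04%, from 1.442 ± 0.00462 to 1.427 ± 0.00233. From gene rows alone the ratio was 1.376 ± 0.00358 with DMSO and 1.358 ± 0.00722 with ponatinib. With the identical copies Rpl10-ps3 and Rps27rt (described further on) added, it was 1.418 ± 0.000941 and 1.381 ± 0.0106, a difference of -2.65%.

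**Figure D3:**
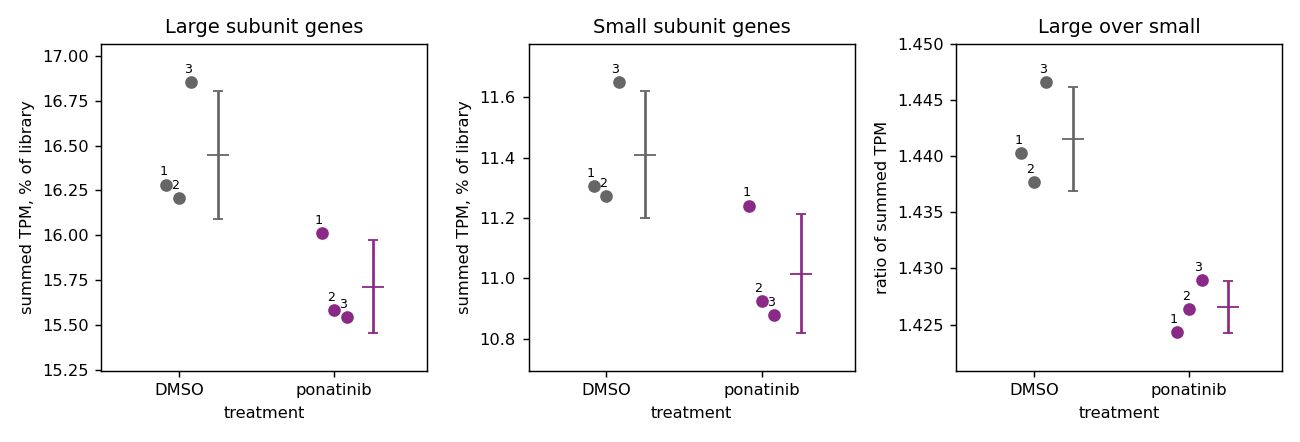
Summed TPM of the 46 large and 31 small subunit genes as a percentage of the library, and the ratio of both sums, with 1 numbered point per replicate and the mean with its SD beside them; the vertical axes do not start at 0. All 3 ponatinib points lie below all 3 DMSO points in each panel, with ratios of 1.424 to 1.429 against 1.438 to 1.447.

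Counts in each direction depended on how the libraries were scaled. The median of all genes lay at 0.10 on deposited TPM, at 0.03 with quantile normalization and at 0.16 with equal sums of the members. With medians of ratios, which puts the median of all genes at 0.003, 34 members were lower (23 large, 11 small) and 0 higher by limma (also 0 at an unadjusted p under 0.05, where 21.7% of all genes were higher), where 16.7% of all genes were lower and 15.5% higher; the 34 included all 12 called on deposited TPM. With the mitochondrially encoded genes left out, 17 were lower and 2 higher, where 10.8% and 27.3% of all genes were called. At a minimum mean of 100 TPM 15 were lower and 2 higher, where 10.7% and 33.2% of all genes were called. Quantile normalization replaces each value by the mean over the libraries at the same rank. It gave 6 lower and 11 higher, where 14.5% and 18.3% of all genes were called. With libraries scaled to an equal sum of the members, chosen after seeing the data, 4 were lower (Rps2, Rpl10a, Rpl3 and Rpl41) and 9 higher. Over all genes 7.7% and 38.2% were called. That scaling fixes the sum of the members, so their balance around 0 follows from its construction.

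Rpl10a and Rpl3 were called lower under all 5 scalings, and no member was called higher under all of them. Under quantile normalization Rps2, Rpl41 and Rpl5 had values of 0.01, 0.15 and 0.02 and were not called, and Rpl13a, at -0.07 on deposited TPM, was called higher at 0.19. On the scale with equal sums of the members the higher calls included Rpl21, Rpl23a, Rpl30, Rpl31, Rpl37a, Rps13, Rps21 and Rps24. These had values above 0 on deposited TPM too, from 0.08 to 0.15.

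**Figure D4:**
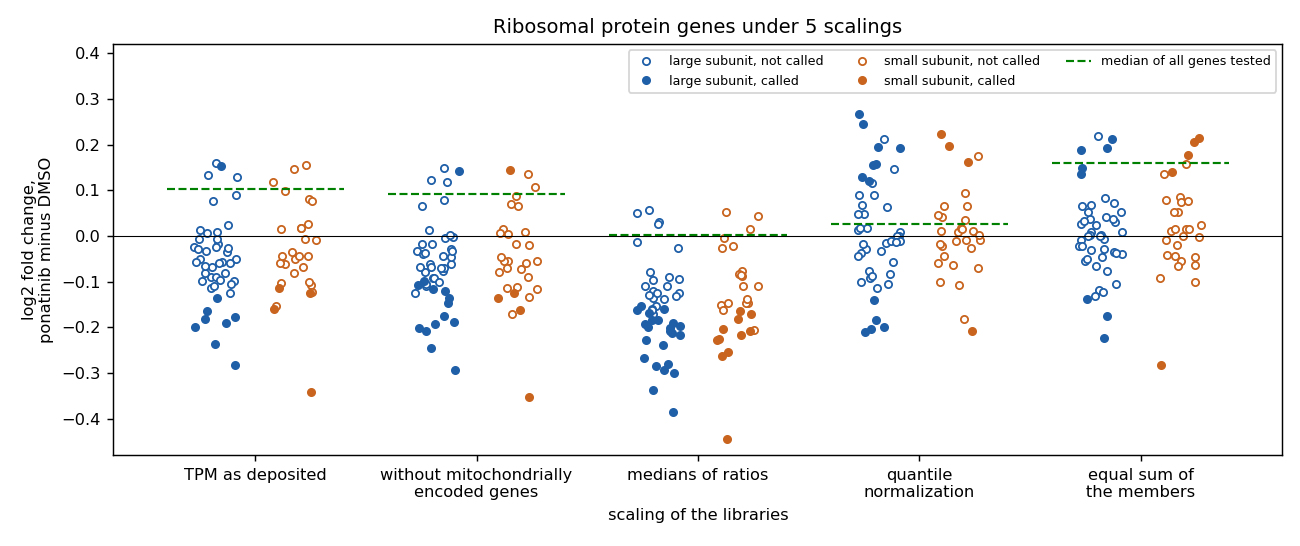
Log2 fold change (ponatinib minus DMSO) of 76 ribosomal protein genes under 5 scalings of the libraries, large subunit in blue and small subunit in orange, filled where called, with a dashed line at the median of all genes tested; Rps27 is left out and points are spread sideways for legibility. The median of the members runs from -0.15 with medians of ratios to 0.01 with equal sums of the members, which hold it near 0 by construction. With quantile normalization single genes shift in both directions, Rpl41 from -0.20 to 0.15 and Rpl37 from -0.03 to -0.18, and Rps2 lies lowest in all but the quantile panel.

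Other abundant genes give the frame for these values. Among the 75 genes at 1000 TPM or more that are no members, 15 were higher and 16 lower, with a median of 0.03. Among the 3491 other genes tested whose coding length lies in the members' range, 900 were higher and 352 lower, with a median of 0.09. The spread of fold changes was 0.10 (SD) over the 77 members, against 0.37 over all genes tested.

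Fold changes varied with the length of the coding sequence. Across the 77 members Pearson's r between log2 fold change and log2 coding length was -0.34 and Spearman's rho -0.37. In the 26 shortest genes (138 to 396 bases) the median was -0.02, with 2 lower and 1 higher. In the 25 of middle length (405 to 552 bases) it was -0.05, with 3 lower. In the 26 longest (564 to 1257 bases) it was -0.08, with 7 lower. Over 3491 other genes in the same range r was -0.05 and rho -0.05. These are correlations across genes, which share libraries and are not independent. Between fold change and level r was -0.25 over the members and -0.15 without Rps27 and Rpl10.

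Some members share their sequence with near-identical copies elsewhere in the genome, so that reads of both can be hard to tell apart. In 55 of 77 members at least 50% of all stretches of 31 bases also occur in another annotated gene. Counting only genes listed at 1 TPM or more, this held for 4 members, Rps27, Rpl10, Rpl36a and Rpl29. Copies that are not listed have no level here and could not be counted, so their expression is unknown. Among those not listed were Rpl10a-ps1, sharing 88.4% of the stretches of Rpl10a, and Rpl3-ps1, sharing 84.6% of those of Rpl3. Rps27, on the minus strand of chromosome 3 (90212522 to 90213651, 4 exons), and Rps27rt, a single-exon gene on the minus strand of chromosome 9 (114982366 to 114982739), have coding sequences of 252 bases that differ at 0 positions. The first 120 bases of that sequence, from GENCODE release 21 on GRCm38, are shown because no read that lies within them can be placed in 1 gene rather than the other:
Rps27 and Rps27rt: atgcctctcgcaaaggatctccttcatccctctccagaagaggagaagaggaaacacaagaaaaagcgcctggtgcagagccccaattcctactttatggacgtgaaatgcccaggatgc

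Rps27 was the member with the lowest level and the widest spread. It stood at 12.7, 9.65 and 64.0 TPM in DMSO replicates 1 to 3 and at 53.3, 16.0 and 11.0 TPM in ponatinib replicates 1 to 3. High values occurred in 1 library of each treatment, and the difference could not be resolved (log2 fold change 0.07, SE 0.75). Its copy Rps27rt held nearly all of the pair, at 4165, 3716 and 5183 TPM with DMSO and 7026, 5225 and 5974 TPM with ponatinib. The groups of Rps27rt did not overlap, although DMSO replicate 3 and ponatinib replicate 2 were almost level. Rps27rt rose (log2 fold change 0.48, SE 0.14, limma adjusted p = 0.028). Rps27 took 0.184% to 1.2198% of the pair's TPM in the 6 libraries.

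Added together, chosen after seeing the data, both genes went from 4384 ± 781 to 6102 ± 924 TPM (log2 fold change 0.48, SE 0.14, limma adjusted p = 0.0305), with groups that overlapped: DMSO replicate 3 stood at 5247 and ponatinib replicate 2 at 5241 TPM. That is the highest fold change of any member under this sum. The call on Rps27rt alone was lost without DMSO replicate 1 or 2 or ponatinib replicate 1 or 3 (adjusted p = 0.0816, 0.0752, 0.0942 and 0.0843), and with medians of ratios (0.059); over its alternatives the adjusted p ran from 0.00206 to 0.228.

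Rpl10, a protein added late to the large subunit, is paired in the same way with Rpl10-ps3, whose 642 coding bases are identical. Rpl10 stood at 576, 633 and 409 TPM with DMSO and at 566, 570 and 644 TPM with ponatinib, DMSO replicate 3 being the lowest. Rpl10-ps3 stood at 3387, 3207 and 3956 TPM with DMSO and at 3389, 3240 and 3336 TPM with ponatinib, DMSO replicate 3 being the highest. The log2 fold change of Rpl10 was 0.16 (adjusted p = 0.424), -0.03 without DMSO replicate 3, -0.16 from its gene row alone and -0.05 for the sum with its copy, and none of these was called.

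**Figure D5:**
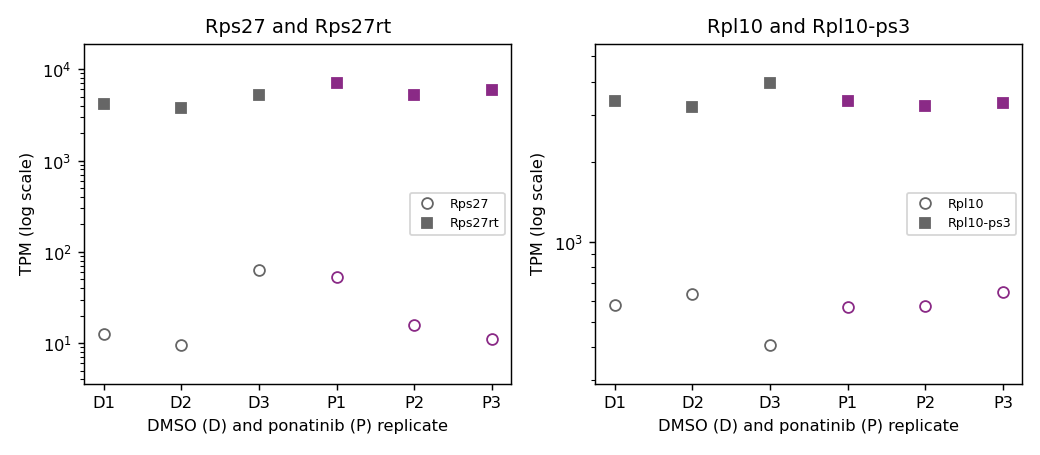
TPM on a log axis of Rps27 and Rpl10 (open circles) and of the copy with an identical coding sequence (filled squares) in each DMSO (grey) and ponatinib (purple) library. The copy lies above the gene in every library, by the widest distance for Rps27rt, which stands at 3716 to 7026 TPM against 9.65 to 64.0 TPM for Rps27.

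The table also lists single transcripts apart from their gene, and here their TPM were added to the gene. There were 73 such transcripts in 39 members, of which 32 in 20 members had at least 10 TPM. Together the 73 transcripts held most of the TPM of Rpl13a, Rpsa, Rpl11 and Rpl10, with 51.0% in Rpl10. Rpl13a-214 took 57.6% ± 0.847 of the Rpl13a level with DMSO and 56.3% ± 2.3 with ponatinib, and Rpsa-206, annotated as a target of nonsense-mediated decay, took 60.6% ± 2.42 and 59.4% ± 1.43 of Rpsa. Neither share separated the treatments. The share of the gene overlapped between treatments for 26 of the 32 transcripts, was higher in all ponatinib libraries for 3 and lower for 3. Of the 14 annotated as decay targets, 1 was lower in share, Rpl13a-202, at 0.602% ± 0.0662 with DMSO and 0.486% ± 0.0468 with ponatinib. How often shares separate over all transcripts listed was not counted, so whether these counts are usual cannot be told.

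Rpl10-211 took 51.2%, 50.7% and 23.2% of Rpl10 with DMSO and 53.6%, 53.4% and 56.1% with ponatinib; DMSO replicate 3 alone was far from the rest. These shares were not tested. Rpsa, Rps12 and Rpl5 were not called when gene rows were used alone.

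Relatives outside the symbol pattern were measured as well. Rpl22l1, the paralog of Rpl22, had means of 642 ± 74.8 and 488 ± 14.3 TPM and fell by 0.39 on the log2 scale (SE 0.08, limma adjusted p = 0.00804). Rpl7l1, a relative of Rpl7, had means of 138 ± 6.51 and 192 ± 7.17 TPM and rose by 0.48 on the log2 scale (SE 0.05, limma adjusted p = 8.79e-04). The parent genes Rpl22 and Rpl7 were not called. Rps3a1, Fau, whose product contains Rps30, and Rpl36al lay between -0.06 and 0.05 and were not called. Within the pattern, the member Rps27l, a paralog of Rps27 and a p53 target, stood at 765, 795 and 676 TPM with DMSO and at 767, 813 and 810 TPM with ponatinib, with overlapping groups.

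Other genes whose messages begin with a pyrimidine tract had 3 lower and 3 higher, where 9.13% and 27.3% of all genes were. Of 20 tested, Eef2, the translocase of elongation, fell from 3642 ± 84.6 to 3002 ± 55.9 TPM, Rack1, a scaffold protein on the head of the small subunit, fell by 12.03% and Eef1g by 10.2%, while Eif2s3x, Nap1l1 and Eif3a rose by 0.33, 0.21 and 0.17 on the log2 scale. Their median was -0.004. Dedicated chaperones that hold new ribosomal proteins until assembly had 5 of 8 members higher, where 27.3% of all genes were. Tsr2, which carries Rps26, rose from 26.4 ± 1.63 to 43.5 ± 3.88 TPM, and Grwd1, which carries Rpl3, from 73.9 ± 7.77 to 107 ± 6.18 TPM. The clients Rps26 and Rpl3 stood at -0.01 and -0.24. Heatr3, Ltv1 and Bccip rose by 0.32, 0.33 and 0.27 on the log2 scale.

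Among 10 genes that control translation of ribosomal protein messages, Eif4ebp1, which encodes the mTORC1-regulated repressor of cap binding, went down from 84.7 ± 18.1 to 20.7 ± 1.13 TPM, a log2 fold change of -1.96. Its paralog Eif4ebp2 and the mTORC1 subunit gene Rptor rose by 0.34 and 0.36. In this list 1 was lower and 2 higher, where 9.13% and 27.3% of all genes were. Larp1, the protein that binds pyrimidine-tract messages, had means of 160 ± 9.97 and 163 ± 6.19 TPM and was not called. Of 10 ribosome quality control genes, Abce1, which splits ribosomes, and Ltn1, a ubiquitin ligase for stalled chains, rose by 0.28 and 0.23. The other 8 were not called, and over all genes tested 27.3% were higher.

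No called gene of these lists changed sign under any alternative, but several calls were lost. Eif3a, Nap1l1, Heatr3, Bccip, Abce1 and Ltn1 were not called with medians of ratios (limma adjusted p = 0.228, 0.0818, 0.0734, 0.189, 0.0852 and 0.186) or with quantile normalization (0.0549, 0.141, 0.0505, 0.134, 0.0518 and 0.21). Rack1 was not called with quantile normalization or equal sums of the members (0.146 and 0.0525), nor Eef1g with equal sums (0.16). Eif3a, Ltv1 and Ltn1 lost their calls without DMSO replicate 1 or 2 or ponatinib replicate 2 or 3, Eef1g without DMSO replicate 1 or 2 or ponatinib replicate 1 or 2, and Bccip without ponatinib replicate 2 or 3. Over all alternatives the highest adjusted p was 0.228 for Eif3a, 0.124 for Ltv1, 0.16 for Eef1g, 0.189 for Bccip and 0.21 for Ltn1. Eef2, Tsr2, Grwd1, Eif4ebp1, Eif4ebp2 and Rptor were called under every alternative run.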

How the data were processed

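Total RNA of 6 libraries had been sequenced, 3 per treatment, and groups and replicate numbers came from the sample titles. The authors deposited 1 table whose columns each add up to 1000000, so the deposited values were treated as TPM, although its name speaks of normalized counts. Salmon 1.5.1, fastp 0.19.5 and DESeq2 1.22.1 appear, with the build GRCm38, in the submitters' processing notes; the annotation release and strandedness are not given in the sources used. TPM are relative to the library total and keep no depth, so no counting interval is given and precision rests on the 3 replicates per group.

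Of 43072 rows, 20977 were transcripts; these were added to their gene, with names, positions and coding sequences from GENCODE mouse release 21 on GRCm38 (22011 gene and 20793 transcript rows found). Genes averaging 10 TPM or more were compared on log2(TPM + 1) in R 4.3.3 with limma 3.58.1 (lmFit, eBayes, intensity trend), two-sided, with Benjamini-Hochberg adjustment over all 6816 genes. The fit was tested on simulated data. All genes tested are from all 6 libraries, and no sample was dropped or imputed. Percentages of change are from ratios of mean TPM. Alternatives covered scaling, pseudocount, minimum level, gene rows alone, a replicate block, each library left out, and, chosen after seeing the data, no intensity trend, equal summed TPM of the members, and identical copies added to their gene.

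Genes named with values were the called members with the largest changes, those with the highest and lowest levels per subunit, a fixed set of 10 members, the relatives outside the symbol rule, and up to 4 called genes per list by p. Other genes named were chosen after their values were seen. The members and lists were chosen with earlier results of these data known. Some genes are counted but not reported by name here.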

Additional observations from a re-analysis of the deposited data

How the results depend on the processing

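Precision rests on 3 libraries per group and TPM keep no depth. Counts of called members, at 12 lower (8 large, 4 small) and 1 higher (a large subunit gene) on deposited TPM, moved with most settings, and the cause was not tested except where a setting's construction shows it. Lower and higher counts were 34 (23 and 11) and 0 under medians of ratios, 6 (5 and 1) and 11 (8 and 3) by quantile normalization, and 17 (13 and 4) and 2, of which 1 small, without mitochondrially encoded genes. They were 2 (2 and 0) and 0 with no filter, which tests more genes. That is 2.6% lower, where 2.31% of all genes were lower and 6.37% higher. At a minimum of 100 TPM they were 15 and 2 (2 large). Gene rows alone gave 9 members lower (7 large, 2 small), or 11.7%, where 9.88% of all genes were lower. With no intensity trend the counts were 5 (4 and 1) and 0, or 6.49% lower, where 8.93% of all genes were lower and 26.8% higher. With equal sums of the members they were 4 (3 and 1) and 9 (5 and 4). With copies added 2 were higher, 1 of them small. Leaving out 1 library gave 4 to 15 lower (3 to 9 large, 1 to 6 small). It gave 0 to 6 higher (0 to 3 large, 0 to 3 small), the highest counts without DMSO replicate 3. There 19.5% of members and 9.86% of all genes were lower. Without DMSO replicate 1 or 2 it was 7.79% and 9.09% of members, against 7.02% and 8.88% of all genes. Without ponatinib replicate 1, 2 or 3 it was 6.49%, 5.19% and 5.19%, against 6.5%, 6.58% and 6.36%. Over all genes 15.2% to 39.3% were higher.

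Over all genes, medians of ratios gave 1059 higher and 1138 lower, quantile normalization 989 lower, and a minimum of 100 TPM 446 higher and 144 lower of 1345; leaving out 1 library gave 1037 to 2659 higher and 433 to 668 lower. Medians of log2 fold changes over members, large and small subunit were -0.15, -0.16 and -0.15 under medians of ratios. By quantiles they were -0.0011, -0.0037 and 0.0012. With equal sums of the members, which hold them near 0 by construction, they were 0.0082, 0.001 and 0.0157. Leaving out 1 library gave -0.0669 to -0.0278 for the members. The median of all genes was 0.0027, 0.0268 and, with no filter, 0. The log2 ratios of the summed TPM were -0.17 and -0.15 for the subunits with medians of ratios, and that of large over small was -0.0388 with copies added. Single genes changed sign under quantile normalization: Rpl13a was called at 0.19, and Rpl41, Rpl5 and Rps2 lay at 0.15, 0.0172 and 0.0108.

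Correlations of the deviations of libraries with equal replicate numbers were -0.10, 0.11 and 0.02. Those with unequal numbers ran from -0.14 to 0.10. With 3 libraries per group, whose deviations are not independent, these values cannot decide whether the libraries were paired. A fit with the replicate number as a block gave 7 members lower (6 large, 1 small) and 0 higher. That is 9.09% lower, where 9.14% of all genes were lower and 26.3% higher. Over the 29 called genes named and their alternatives, 395 of 512 values kept direction and call, 114 lost the call and 3 changed sign. Among the named genes not called, 15 values gained a call, Rpl13a changed sign with a call, and 31 values changed sign without one.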
